A study of Mus musculus with 20 samples.

Results

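Integrins are heterodimers of an α and a β subunit that bind extracellular matrix or other cells, and laminins are trimers of an α, a β and a γ chain that build basement membranes and are bound by several integrins. The 36 genes described here are 18 integrin α subunits, 8 integrin β subunits and 10 laminin chains. They were taken by gene name from a table of 49315 mouse genes, and the family was chosen with earlier results of these data known. All 36 passed the filter on low counts that left 28082 genes for testing. They were measured by RNA sequencing in CD4+CD25- T effector cells sorted from mouse spleen.

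In T cells the β2 integrins bind ICAMs and hold the cell to antigen presenting cells and endothelium. The α4 subunit pairs with β1 to bind VCAM1 and fibronectin and with β7 to bind the gut addressin MAdCAM1, while αE, known as CD103, pairs with β7 and binds E-cadherin. Integrins are switched on from inside the cell by talin and kindlin after T cell receptor or chemokine signals, so the amount of mRNA is only one layer of their control. Laminin chains are made mainly by stromal, endothelial and epithelial cells.

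The CKO group carried a floxed Pcbp2 gene with the CD4cre transgene (Fl-Pcbp2/CD4cre), and the CTL group, its littermates, carried the floxed gene without Cre (Fl-Pcbp2). Pcbp2 encodes a protein that binds C-rich stretches of RNA, and CD4cre acts in T cells from a stage in the thymus at which all of them express CD4, so the deletion is not limited to mature or effector cells. Cells were taken either without stimulation, called 0 h, or after culture for 6 h on T-activator beads, which engage CD3 together with CD28. There were 3 CKO and 5 CTL libraries at 6 h, and 6 CKO and 6 CTL libraries at 0 h. Each library carries a number from its title, such as 4.24, and the labels do not say what that number marks, nor the age or strain of the mice, so p-values measure only the spread between these libraries.

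Pcbp2 averaged 8.72 ± 2.24 CPM, a gene's read count scaled to a common library size, in CKO cells at 6 h (SD, n = 3), against 322 ± 34.5 CPM in CTL cells (n = 5), and 17 ± 3.39 CPM in CKO cells at 0 h, against 333 ± 46.9 CPM in CTL cells (n = 6 each). The groups did not overlap, with a two-sided exact permutation p = 0.0179 at 6 h, the smallest that 56 assignments allow, and 0.00216 at 0 h. Library totals lay between 26427467 and 85608113 counts. The lowest was that of the CTL library 4.24 at 6 h, and the next lowest was 62402807. The scaling factor of that CTL library was also the highest, 1.368 against 0.861 to 1.096 in the others. Of 8 T cell markers, Cd3e and Cd4 among them, the summed level was 5000 to 6200 CPM in CKO and 4430 to 5860 CPM in CTL cells at 0 h, against 52.6 to 258 CPM and 61.9 to 411 CPM for 10 B cell markers. The CKO libraries 4.24 and 5.6 at 0 h were labelled male but had Xist at 1160 and 1350 CPM and the Y-linked Ddx3y at 0.284 and 0.117 CPM. The CKO library 5.6 at 6 h was labelled female, with Xist at 813 CPM and Ddx3y at 0.175 CPM. Since 3 of the 6 CTL libraries and 0 of the 6 CKO libraries at 0 h were labelled female and the model holds the labelled sex, a fitted fold change can differ from the ratio of the 2 means. The CTL libraries numbered 4.24 stood apart in reads over genes that T cells are not known to use, which is described with the laminins it touches.

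The subunits of LFA-1 and of the α4 integrins had the highest levels in unstimulated cells. Per kilobase of exon, Itgb7, which encodes β7, led with 365 ± 45.9 CPM per kb in CKO and 370 ± 50.9 CPM per kb in CTL cells at 0 h (SD, n = 6 each). Next came Itgb2 (β2) with 202 ± 17.8 CPM per kb in CKO and 213 ± 25.1 CPM per kb in CTL cells, and Itgal, whose αL forms LFA-1 with β2, with 179 ± 33.6 in CKO and 159 ± 14.6 CPM per kb in CTL cells. The ranges of Itgb2 and Itgal overlapped within CKO libraries but not within CTL libraries, while those of Itgal and Itgb1 (β1, at 130 ± 31.5 in CKO and 129 ± 32.7 CPM per kb in CTL) overlapped in both. Itga4 (α4) followed with 63.5 ± 10.5 in CKO and 63.9 ± 6.21 CPM per kb in CTL cells, then Itgb3 (β3) with 37.5 ± 6.94 in CKO and 31.6 ± 3.33 CPM per kb in CTL cells, and Itga6 (α6, a laminin receptor subunit) with 25.0 ± 4.31 in CKO and 23.1 ± 2.7 CPM per kb in CTL cells. The partners αL and β2, and α4 with β1 and β7, were thus the abundant pairs at the level of mRNA.

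Below these came a middle group, in which Itgav (αv) had 9.49 ± 2.96 CPM per kb in CKO and 6.66 ± 0.922 CPM per kb in CTL cells. The best expressed laminin chains were Lamb3 (β3 chain), with 2.40 ± 0.214 CPM per kb in CKO and 2.43 ± 0.270 CPM per kb in CTL cells, and Lamc1 (γ1 chain), with 3.96 ± 1.31 CPM per kb in CKO and 1.47 ± 0.270 CPM per kb in CTL cells. The other 8 laminin chains averaged under 1 CPM in both groups at 0 h, as did Itga8, Itga11, Itgb4 and Itgb6. An α chain is part of every laminin trimer, and the 5 α chain genes were all in this low set. With the longest transcript in place of the union of exons as the length, the 10 highest genes in CTL cells were the same but the order shifted, by up to 4 ranks in CTL cells over all 36 genes. Itga6 then lay above Itgb3 in both genotypes, at 52.4 against 38.3 CPM per kb in CKO and 48.4 against 32.3 CPM per kb in CTL cells. Itgal then lay above Itgb2 in CKO cells, at 225 against 208 CPM per kb, and their ranges overlapped in CTL cells too.

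**Figure D1:**
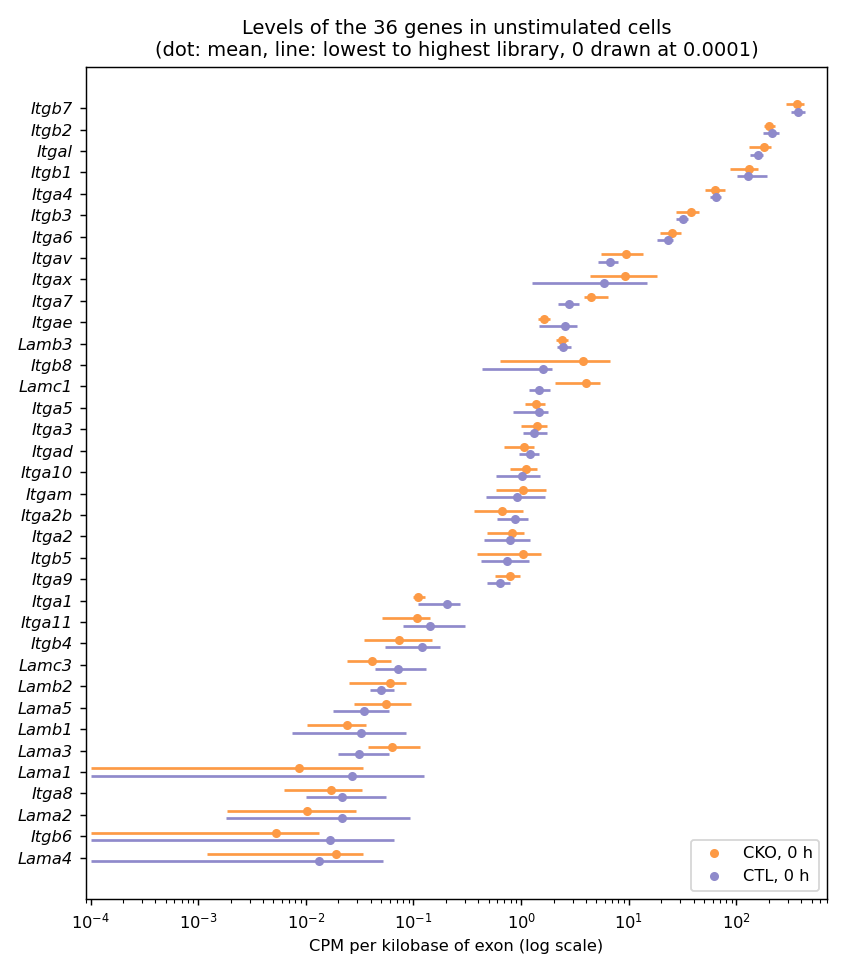
Level of each of the 36 genes in unstimulated cells, in CPM per kilobase of exon on a log axis, for CKO and CTL libraries at 0 h (n = 6 each). Dots are means and lines run from the lowest to the highest library. Itgb7, Itgb2, Itgal, Itgb1 and Itga4 lie highest, and 8 laminin chains with Itga8, Itga11, Itgb4 and Itgb6 form the lower end.

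The upstream sequences of the α4 gene and its β1 and β7 partners are shown because all of these genes were abundant and fell with stimulation in CTL cells. Each is the 250 bases before the RefSeq start on GRCm38.p6, read along the gene's strand 5′ to 3′: Itga4 at chr2:79255176-79255425 on the plus strand, Itgb1 at chr8:128685404-128685653 on the plus strand and Itgb7 at chr15:102231936-102232185 on the minus strand. Capitals mark matches, on either strand, to the RUNX core TGTGGT, the ETS core GGAAGT or the GC box GGGCGG.
Itga4: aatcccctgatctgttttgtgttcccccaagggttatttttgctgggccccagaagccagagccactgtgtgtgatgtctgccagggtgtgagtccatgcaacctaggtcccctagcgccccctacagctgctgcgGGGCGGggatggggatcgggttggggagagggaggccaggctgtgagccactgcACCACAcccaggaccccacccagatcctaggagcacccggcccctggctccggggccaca
Itgb1: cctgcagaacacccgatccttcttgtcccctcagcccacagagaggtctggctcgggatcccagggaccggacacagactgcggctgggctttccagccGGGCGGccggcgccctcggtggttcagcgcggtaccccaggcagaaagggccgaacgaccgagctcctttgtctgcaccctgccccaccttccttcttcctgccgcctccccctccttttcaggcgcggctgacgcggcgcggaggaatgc
Itgb7: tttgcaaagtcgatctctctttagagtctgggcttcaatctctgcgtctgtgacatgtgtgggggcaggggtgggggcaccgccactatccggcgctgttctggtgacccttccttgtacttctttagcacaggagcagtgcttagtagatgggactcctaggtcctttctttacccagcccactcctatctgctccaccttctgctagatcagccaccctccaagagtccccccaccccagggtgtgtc
The Itga4 window held 1 RUNX core, read on the opposite strand and starting 60 bases before the gene's start, and 1 GC box starting 114 bases before it. The Itgb1 window held 1 GC box, and the Itgb7 window held none of the 3 motifs. Over 32851 upstream windows of the same length, 14% held the RUNX core, 19.7% the ETS core and 32.7% the GC box, and the matches in Itga4 do not overlap. The table held windows for 23 of the 36 genes.

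In unstimulated cells the genotype comparison called 1 of the 36 genes, Lamc1, against 0.424% of all genes tested, 0.231% higher and 0.192% lower, with edgeR's quasi-likelihood test at a Benjamini-Hochberg adjusted p under 0.05. Lamc1 encodes γ1, the chain shared by most laminin trimers, and lies at chr1:153218922-153332786 on the minus strand (ENSMUSG00000026478, GRCm38). Its level ran from 17 CPM over a median of 31.8 to 44.5 CPM in CKO libraries, against 9.80 over a median of 12.0 to 15.3 CPM in CTL libraries. Every CKO library was above every CTL library, and the lowest CKO library was 4.24, a library labelled male in which Xist was high. The fitted difference was 1.41 ± 0.22 on the log2 scale (± SE), 2.66-fold, with an adjusted p of 0.00391, and in the 5 pairs of libraries that share a number CKO was higher in 5, by 0.15 to 2.15. The call stood in all 12 alternative settings and all 20 fits that left out 1 library, with adjusted p-values up to 0.0375. Of 11 stromal and endothelial markers 10 had positive differences at 0 h, with a median of 0.91, beside 57.0% and 0.05 for all genes. EdgeR called 0 and DESeq2 called 1 of them, and 2 had an unadjusted edgeR p under 0.05. At 6 h 1 of the 11 was positive, beside 34.5% of all genes. The part of such cells in the values of Lamc1 was not tested.

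Itga7 encodes α7, which pairs with β1 as a laminin receptor best known from muscle. It lies at chr10:128933818-128958282 on the plus strand (ENSMUSG00000025348). At 0 h it had 31.1 to 52.3 CPM in CKO libraries, with a median of 32.5, against 18.0 to 27.9 CPM in CTL libraries, with a median of 22.4. The libraries of both groups did not overlap, but the fitted difference of 0.52 ± 0.17 did not pass the test (adjusted p = 0.334), and it passed only when the level of Ddx3y replaced the labelled sex (0.67 ± 0.16, adjusted p = 0.0437).

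The other 34 genes did not pass at 0 h. Of all 36 fitted differences 23 were positive, beside 57.0% of all genes tested, with a median of 0.19 on the log2 scale beside 0.05 for all genes. An unadjusted p under 0.05 was reached by 4 of the 36 and by 2118 of the 28082 genes tested. Among the low laminin chains Lama3, an α chain of skin laminins, had 0.408 to 1.22 CPM in CKO libraries (median 0.593), against 0.214 to 0.633 CPM in CTL libraries (median 0.275), a difference of 1.73 ± 0.47 with an adjusted p of 0.148. Lama3 passed in 4 of 11 alternatives, among them the fit with the shared numbers as a replicate block (1.90 ± 0.40, adjusted p = 0.0282). It did not pass with the random block in limma, which takes number and genotype together (1.60 ± 0.50, adjusted p = 0.288). Lama5 differed by 0.96 ± 0.43 (adjusted p = 0.616) and Lama4 by 1.91 ± 0.93 (adjusted p = 0.671), at levels of at most 1.08 CPM in every library of both groups.

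Itgb8 and Itgae are integrin genes linked to regulation and tissue residence of T cells: β8 pairs with αv and activates latent TGF-β, and αE marks cells held in epithelia. Itgb8 spread widely in CKO cells at 0 h, from 7.09 over a median of 37.4 to 73.2 CPM, against 4.77 CPM in the CTL library 10.28 and 18.6 to 21.5 CPM in the other 5 CTL libraries. Of the CKO libraries 5 lay above the whole CTL range and the sixth, 4.24, lay inside it, and the fitted difference of 0.91 ± 0.44 did not pass (adjusted p = 0.671). It passed with the replicate block and the Ddx3y level together (1.41 ± 0.28, adjusted p = 0.0226). It did not pass with the block beside the sex label (adjusted p = 0.119) or the random block (adjusted p = 0.981). Itgae had 6.61 to 8.50 CPM in CKO libraries (median 7.57), against 6.65 to 15.2 CPM in CTL libraries (median 12.5). The fitted difference for Itgae was -0.37 ± 0.19, with an adjusted p of 0.686. Itgav, the partner of Itgb8, had 59.2 to 146 CPM in CKO libraries and 55.8 to 84.7 CPM in CTL libraries, with a fitted difference of 0.34 ± 0.22 (adjusted p = 0.814).

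Regulatory T cells, which use both of these integrins, mostly carry CD25, and the sort for CD25- cells removes most of them. Of 8 markers of these cells, 8 had positive fold changes at 0 h, with a median of 0.56, and 1 was called, Gpr83. Over all genes 57.0% were positive and 0.424% were called. Itgb8 had the same sign as these markers and Itgae the opposite one, and neither was called. The lean was not particular to regulatory T cells. Positive were also 10 of 10 B cell (median 0.78), 14 of 15 myeloid and dendritic (0.78), 6 of 7 natural killer (0.96) and 10 of 11 stromal markers (0.91). Of the T cell markers 4 of 8 were positive. The summed level of the regulatory T cell markers was 309 to 841 CPM in CKO and 235 to 406 CPM in CTL libraries at 0 h. Foxp3 itself had 36.7 to 104 CPM in CKO and 32.7 to 64.2 CPM in CTL libraries. The part of these cells in the values of Itgb8 and Itgae was not tested. In bulk samples such as these, more cells of a type and more RNA per cell cannot be told apart.

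**Figure D2:**
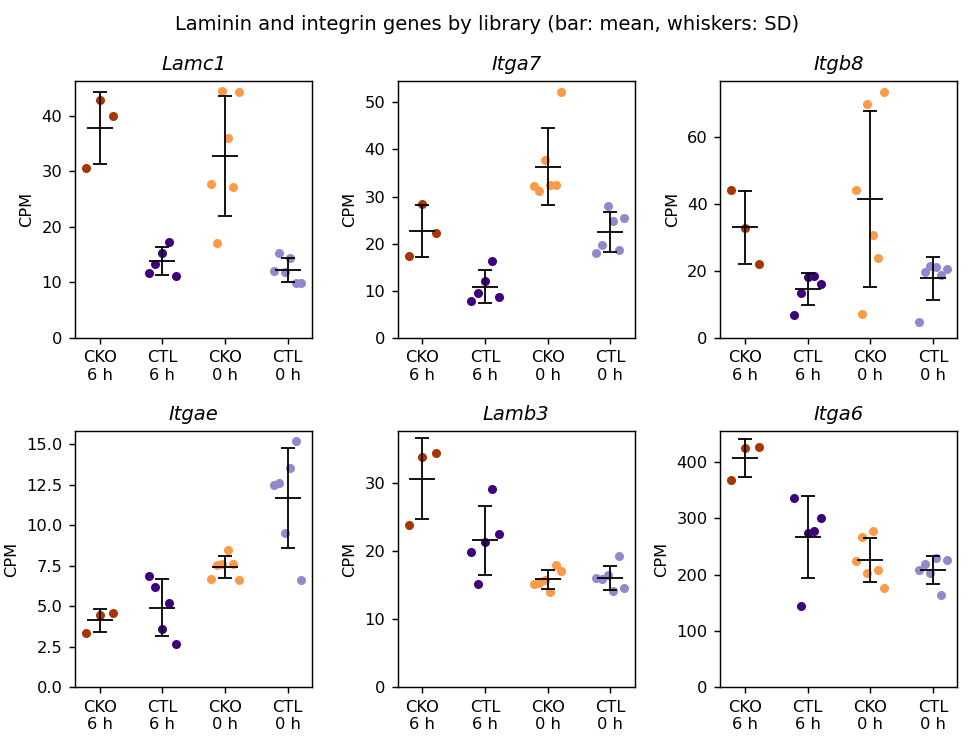
Level of Lamc1, Itga7, Itgb8, Itgae, Lamb3 and Itga6 in CPM, 1 point per library, in CKO and CTL cells at 6 h (n = 3 and n = 5) and at 0 h (n = 6 each). Horizontal bars are means and whiskers are SD. The CKO points of Lamc1 and Itga7 lie above the CTL points of the same time at both times, while Lamb3 separates less and overlaps at 6 h and 0 h.

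The remaining abundant integrins were close between genotypes at 0 h. The αL gene Itgal had 861 to 1390 CPM in CKO (median 1260) and 875 to 1150 CPM in CTL libraries (median 1050), with a fitted difference of -0.01 ± 0.20. Itgb2 had 546 to 703 CPM in CKO and 541 to 751 CPM in CTL libraries, a difference of -0.19 ± 0.13. Itgb7 had 796 to 1160 CPM in CKO and 880 to 1200 CPM in CTL libraries, a difference of -0.11 ± 0.19. Itga4 had 712 to 1100 CPM in CKO and 788 to 1010 CPM in CTL libraries, a difference of -0.21 ± 0.24, and Itgb1 had 353 to 647 CPM in CKO and 417 to 789 CPM in CTL libraries, a difference of -0.19 ± 0.20. The groups overlapped for each of these 5 genes, and adjusted p-values lay between 0.836 and 0.998. These tests do not show that the levels were equal, since standard errors of up to 0.24 leave room for moderate differences.

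Genes that work with the family were read from 3 lists. Of 42 genes of integrin activation and the adhesion complex, 1 was called at 0 h, the kinase Src, with 4.10 to 5.76 CPM in CKO (median 4.77) and 2.11 to 3.50 CPM in CTL libraries (median 2.91). Its difference was 0.78 ± 0.17 with an adjusted p of 0.0429, and it was called in 4 of the 20 fits that left out 1 library. Of 16 basement membrane partners and other laminin receptors 2 were called. Nid2, or nidogen 2, which binds the laminin γ1 chain in basement membranes, had 2.83 to 4.88 CPM in CKO and 1.24 to 1.65 CPM in CTL libraries, a difference of 1.72 ± 0.33 (adjusted p = 0.0221). Cd81, a tetraspanin that associates with integrins, had 27.8 to 47.7 CPM in CKO and 17.7 to 25.8 CPM in CTL libraries, a difference of 0.72 ± 0.14 (adjusted p = 0.0247). In both genes the groups did not overlap. The part of stromal and endothelial cells in the values of Nid2 was not tested. Nid2 was called in 17 and Cd81 in 13 of the 20 fits without 1 library, where adjusted p-values reached 0.0713 for Nid2 and 0.0900 for Cd81. Of 25 integrin ligands tested, edgeR called 0 and DESeq2 called 1, and 3 had an unadjusted edgeR p under 0.05.

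After 6 h of stimulation the genotype comparison called 2 of the 36 genes, Lamc1 and Itga7, both higher in CKO cells, against 0.292% of all genes tested, 0.253% higher and 0.0392% lower. Lamc1 had 42.9, 39.9 and 30.5 CPM in CKO libraries, against 15.2, 13.3, 17.3, 11.2 and 11.7 CPM in CTL libraries. The lowest CKO library lay above the highest CTL library, and the difference was 1.46 ± 0.24 on the log2 scale, 2.74-fold, with an adjusted p of 0.00854. Itga7 had 28.4, 22.2 and 17.3 CPM in CKO libraries, against 12.1, 9.46, 16.3, 8.60 and 7.79 CPM in CTL libraries. The groups again did not overlap, although the CKO library 11.18 and the CTL library 5.13 lay close, and the difference was 1.07 ± 0.20, 2.09-fold, with an adjusted p of 0.0184.

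Both calls rested on the small CKO group. Without CKO library 5.13 the adjusted p was 0.091 for Lamc1 and 0.231 for Itga7, and without CKO library 5.6 it was 0.118 for Lamc1 and 0.35 for Itga7, with log2 differences between 0.91 and 1.39. A fit with only the 2 groups at 6 h called neither gene (adjusted p = 0.0679 for Lamc1 and 0.505 for Itga7), and Itga7 was also lost without the sex term (adjusted p = 0.0515) and without CTL library 4.29, 9.20 or 10.28 (adjusted p of 0.0557, 0.0523 and 0.0527).

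Of all 36 genes 22 had a positive difference at 6 h, beside 34.5% of all genes tested, and 14 had an unadjusted p under 0.05, as did 3564 of the 28082 genes tested. Without the CTL library 4.24 at 6 h, 8 of the 36 and 2522 of all genes had such a p. The median was 0.15 beside -0.29 for all genes tested. The all-gene median was -0.11 without CTL library 4.24 and -0.03 among genes that averaged at least 1 CPM. Itga6 had 425, 427 and 368 CPM in CKO libraries, against 274, 144, 278, 300 and 335 CPM in CTL libraries, a difference of 0.61 ± 0.20 that did not pass (adjusted p = 0.290) although the groups did not overlap. Itgb3 (β3, the partner of αv in the vitronectin receptor) had 178, 175 and 158 CPM in CKO libraries, against 142, 58.9, 118, 114 and 133 CPM in CTL libraries, a difference of 0.59 ± 0.20 (adjusted p = 0.314). Itgb8 had 32.7, 22.1 and 44.0 CPM in CKO libraries, against 18.0, 13.4, 18.5, 16.0 and 6.92 CPM in CTL libraries, a difference of 1.14 ± 0.49 (adjusted p = 0.379). In each of these 3 genes all CKO libraries were above all CTL libraries at 6 h. The same held for Itga10, not called either, with a difference of 0.446 ± 0.245 (adjusted p = 0.409). How often both groups separate in this way over all genes was not computed. The exons of Itga10 overlap those of the predicted gene Gm42957 on the same strand, so its counts are uncertain.

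Lamb3, whose chain joins α3 and γ2 in skin laminins, had 33.7, 34.3 and 23.8 CPM in CKO libraries at 6 h, against 21.3, 15.1, 29.1, 22.5 and 19.8 CPM in CTL libraries. The groups overlapped through the CTL library 5.13, and the difference of 0.51 ± 0.16 did not pass (adjusted p = 0.293). The low laminin chains mostly pointed the other way at 6 h: 7 of the 8 low chains had negative differences, from -0.38 for Lamb2 to -1.51 for Lamc3, and Lama5 had 0.64 ± 0.46, none of them called. The CTL library 4.24 was the highest CTL library for each of the 7 but Lamb2, with Lama2 at 15.6 CPM against 0.736 to 2.09 CPM in the other CTL libraries. Without it the 7 differences lay between -0.79 for Lamc3 and -0.43 for Lama2. Regulatory T cell markers had positive fold changes in 8 of 8 at 6 h, with Foxp3 and Gpr83 called. Over all genes 34.5% were positive and 0.292% were called. B cell markers were positive in 9 of 10, with 0 called. The summed level of the regulatory T cell markers was 782 to 990 CPM in CKO and 572 to 724 CPM in CTL libraries. Of the adhesion complex list, the ligands and the basement membrane list, edgeR called 0 at 6 h. DESeq2 called 2, 0 and 2 genes of these lists, and 11, 2 and 2 had an unadjusted edgeR p under 0.05.

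Stimulation moved more of these genes than the genotype did. In CKO cells 20 of the 36 genes were called between 6 h and 0 h, 9 higher and 11 lower, where 32.8% of all genes were called, 19.6% higher and 13.1% lower. In CTL cells 28 were called, 15 higher and 13 lower, where 63.4% of all genes were called, 41.6% higher and 21.7% lower. The median log2 difference of the 36 genes was 0.05 in CKO and 0.25 in CTL cells, beside 0.12 and 0.31 for all genes. Of the 26 integrins 11 fell and 5 rose in CKO cells, and 13 fell and 6 rose in CTL cells. Of the 10 laminin chains 4 rose in CKO and 9 in CTL cells, and no laminin chain was called lower.

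All 5 genes of the β2 group fell in both genotypes. Itgb2 had 176, 178 and 187 CPM in CKO libraries at 6 h, against 546 to 703 CPM at 0 h (median 617). The CTL libraries had 162, 98.0, 185, 185 and 166 CPM at 6 h, against 541 to 751 CPM at 0 h (median 658). The times did not overlap, and the log2 differences were -1.69 ± 0.16 in CKO cells (adjusted p = 3.24e-07) and -2.06 ± 0.13 in CTL cells (adjusted p = 6.42e-10). Itgal had 425, 379 and 464 CPM in CKO libraries at 6 h, against 861 to 1390 CPM at 0 h. For Itgal the CTL libraries had 322, 142, 470, 405 and 342 CPM at 6 h, against 875 to 1150 CPM at 0 h. Its differences were -1.36 ± 0.24 in CKO and -1.70 ± 0.20 in CTL cells.

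The other α partners of β2 are better known from myeloid and dendritic cells than from T cells. Itgax (αX, CD11c) had 1.05, 3.26 and 1.62 CPM in CKO libraries at 6 h, against 20.9 to 87.2 CPM at 0 h. In CTL libraries Itgax had 1.10, 0.862, 0.427, 1.49 and 2.01 CPM at 6 h, against 6.01 to 71.2 CPM at 0 h. Its differences were -4.67 ± 0.82 in CKO and -4.56 ± 0.64 in CTL cells, the steepest falls among the 36 genes in each genotype. Itgam (αM, CD11b) fell by 2.52 ± 0.47 in CKO and by 2.7 ± 0.38 in CTL cells on the log2 scale, at mean levels of 5.24 CPM in CKO and 4.57 CPM in CTL cells at 0 h. Itgad (αD) fell by 3.45 ± 0.39 in CKO and by 2.43 ± 0.30 in CTL cells, at mean levels of 4.84 CPM in CKO and 5.39 CPM in CTL cells at 0 h. The exons of Itgam overlap those of the predicted gene Gm49368 on the same strand, and those of Itgad overlap Gm17831, so the counts of both are uncertain.

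Markers of myeloid and dendritic cells fell beside these 3 genes. Of 15 such markers, 9 were called lower and 0 higher in CKO cells (median -2.21), beside 13.1% lower over all genes. In CTL cells 8 were called lower and 0 higher (median -1.13), beside 21.7% lower. Their summed level was 37.6 to 69.5 CPM in CKO libraries at 6 h, against 98.7 to 261 CPM at 0 h, and 24.9 to 69.8 CPM in CTL libraries at 6 h, against 76.8 to 193 CPM at 0 h. Other lists fell too. Of 10 B cell markers 6 were called lower in CKO (median -1.88) and 9 in CTL cells (median -1.97), with 0 higher. Of 8 T cell markers 7 were called lower in CKO (median -0.79) and 8 in CTL cells (median -1.05). Csf1r, the receptor of macrophage colony stimulating factor, had 0.714 to 1.75 CPM in CKO libraries at 6 h, against 10.1 to 23.1 CPM at 0 h. In CTL libraries Csf1r had 0.592 to 2.73 CPM at 6 h, against 9.09 to 17.6 CPM at 0 h. At 0 h 14 of the 15 myeloid and dendritic markers were also higher in CKO than in CTL cells by sign, beside 57.0% of all genes. Of these markers edgeR called 0, DESeq2 called 0 and 6 had an unadjusted edgeR p under 0.05. The part of such cells in the falls of Itgax, Itgam and Itgad was not tested.

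The partners of α4 fell as well. Itgb7 had 468, 457 and 262 CPM in CKO libraries at 6 h, against 796 to 1160 CPM at 0 h (median 1020). The CTL libraries had 345, 185, 385, 230 and 266 CPM at 6 h, against 880 to 1200 CPM at 0 h (median 1020). The times did not overlap, and the differences were -1.28 ± 0.23 in CKO and -1.89 ± 0.19 in CTL cells. Itgb1 had 286, 232 and 327 CPM in CKO libraries at 6 h, against 353 to 647 CPM at 0 h. In CTL libraries Itgb1 had 272, 165, 379, 243 and 220 CPM at 6 h, against 417 to 789 CPM at 0 h. Its differences were -0.79 ± 0.23 in CKO and -1.11 ± 0.19 in CTL cells.

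Itga4 had 624, 484 and 456 CPM in CKO libraries at 6 h, against 712 to 1100 CPM at 0 h. For Itga4 the CTL libraries had 321, 136, 635, 408 and 354 CPM at 6 h, against 788 to 1010 CPM at 0 h. Its difference of -1.36 ± 0.23 was called in CTL cells, and that of -0.63 ± 0.27 in CKO cells was not (adjusted p = 0.0816), although no library at 6 h reached the range at 0 h in either genotype. With the shared numbers as a replicate block the fall in CKO cells was -0.86 ± 0.30 and was called (adjusted p = 0.0261). With the number and genotype as a random block in limma it was -0.63 ± 0.25 and was not (adjusted p = 0.0523). The exons of Itga4 overlap those of Cerkl on the other strand, and how the counting used strand is not given in the sources used here. Itgae, the second α partner of β7, fell by 1.02 ± 0.22 in CKO and by 1.22 ± 0.18 in CTL cells on the log2 scale.

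**Figure D3:**
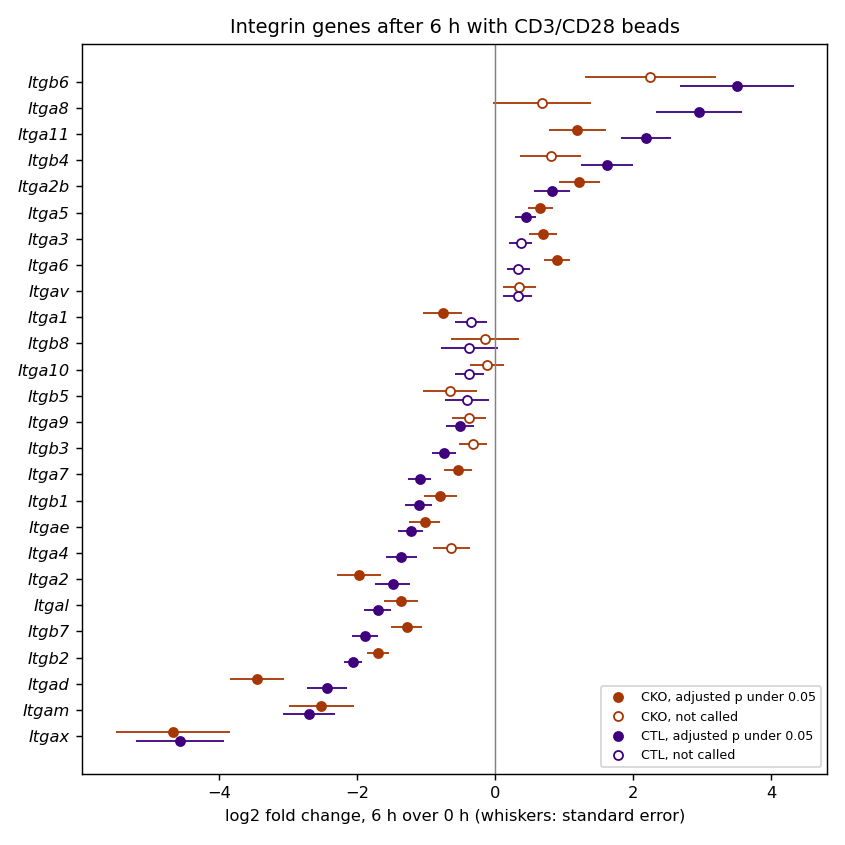
Log2 fold change of the 26 integrin genes between 6 h and 0 h in CKO and in CTL cells, with whiskers of 1 SE, ordered by the value in CTL cells. Filled circles passed the test at an adjusted p under 0.05 and open circles did not. Itgax, Itgam, Itgad, Itgb2, Itgb7 and Itgal lie at the negative end in both genotypes, and Itga2b, Itga5 and Itga11 are filled on the positive side in both.

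A smaller set of integrin genes rose. Itga5 (α5, the fibronectin receptor with β1) had 11.9, 12.8 and 9.35 CPM in CKO libraries at 6 h, against 5.32 to 8.23 CPM at 0 h. In CTL libraries Itga5 had 10.2, 11.3, 8.24, 8.69 and 9.33 CPM at 6 h, against 4.16 to 8.72 CPM at 0 h. It rose by 0.66 ± 0.18 in CKO cells and by 0.44 ± 0.15 in CTL cells. Itga2b (αIIb, the platelet partner of β3) rose by 1.22 ± 0.30 in CKO and by 0.83 ± 0.26 in CTL cells, and its partner gene Itgb3 had differences of -0.32 ± 0.21 in CKO, not called, and -0.74 ± 0.17 in CTL cells, called. Of 9 platelet markers tested, 5 were called higher and 0 lower in CKO cells, beside 19.6% higher and 13.1% lower over all genes. In CTL cells 6 were called higher and 0 lower, beside 41.6% higher and 21.7% lower. Most lay near the floor: of 11 listed, 10 averaged under 1 CPM in each genotype at 0 h, and 9 in CKO and 8 in CTL cells at 6 h. Their median log2 differences were 1.57 in CKO and 2.49 in CTL cells. The summed level of the 11 listed markers was 8.63 to 11.6 CPM in CKO libraries at 6 h, against 5.36 to 10.5 CPM at 0 h, and 6.79 to 22.2 CPM in CTL libraries at 6 h, against 4.21 to 6.24 CPM at 0 h. Of the defining markers Pf4 was at most 1.56 CPM and Ppbp at most 0.111 CPM in any library. The part of platelets in the values of Itga2b and Itgb3 was not tested.

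The 2 laminin receptor subunits α6 and α3 were called in CKO cells. Itga6 had 425, 427 and 368 CPM in CKO libraries at 6 h, against 177 to 277 CPM at 0 h (median 216), with a difference of 0.90 ± 0.19 (adjusted p = 0.00213) and no overlap. In CTL cells it had 274, 144, 278, 300 and 335 CPM at 6 h, against 163 to 230 CPM at 0 h, with a difference of 0.34 ± 0.17 (adjusted p = 0.0809). Without CTL library 4.24 at 6 h the difference in CTL cells was 0.52 ± 0.12 and was called (adjusted p = 0.00143). Itga3 rose by 0.70 ± 0.20 in CKO cells and differed by 0.37 ± 0.17 in CTL cells (adjusted p = 0.0679), where it was called with the replicate block (0.34 ± 0.13, adjusted p = 0.0293) and without CTL library 4.24 at 6 h (0.52 ± 0.16, adjusted p = 0.0102).

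The third laminin receptor, Itga7, went the other way and fell by 0.54 ± 0.20 in CKO cells (adjusted p = 0.0476) and by 1.09 ± 0.17 in CTL cells (adjusted p = 3.31e-05). The call in CKO cells stood in 8 of 12 alternatives and in 9 of 20 fits without 1 library, with adjusted p-values up to 0.359. The collagen receptor subunits α2 and α1 also fell: Itga2 by 1.97 ± 0.32 in CKO and by 1.48 ± 0.26 in CTL cells, and Itga1 by 0.76 ± 0.28 in CKO cells (adjusted p = 0.0451), beside -0.35 ± 0.23 in CTL cells (adjusted p = 0.192). The Itga1 call stood in 3 of 12 alternatives and was lost with the replicate block (-0.57 ± 0.34, adjusted p = 0.190). It stood with the random block (-0.83 ± 0.30, adjusted p = 0.0325). The exons of Itga1 overlap those of the predicted gene Gm49395 on the same strand. Both subunits are also used by natural killer cells, whose 7 markers summed to at most 43.4 CPM in CKO libraries at 6 h, against 70.8 to 97.2 CPM at 0 h, and to 27.3 to 50.9 CPM in CTL libraries at 6 h, against 65.0 to 129 CPM at 0 h, and their part was not tested.

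Itga9, which binds tenascin and VCAM1, had a difference of -0.51 ± 0.20 in CTL cells (adjusted p = 0.0345), called in 9 of 12 alternatives, and -0.38 ± 0.24 in CKO cells, not called. Itgav, Itgb8, Itgb5 and Itga10 were not called in either genotype, with differences of 0.35, -0.15, -0.65 and -0.11 in CKO and 0.33, -0.37, -0.40 and -0.38 in CTL cells and standard errors of at most 0.49. Itgav was called in CTL cells without library 4.24 at 6 h (0.48 ± 0.20, adjusted p = 0.0484). With the replicate block Itgb5 was called lower in CKO cells (-1.15 ± 0.36, adjusted p = 0.0164). It was not called with the random block (-0.56 ± 0.36, adjusted p = 0.221).

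Among laminin chains Lamb3 was the only well expressed one that rose. It had 33.7, 34.3 and 23.8 CPM in CKO libraries at 6 h, against 14 to 17.9 CPM at 0 h (median 15.5). In CTL libraries Lamb3 had 21.3, 15.1, 29.1, 22.5 and 19.8 CPM at 6 h, against 14.1 to 19.2 CPM at 0 h (median 15.9). It rose by 0.96 ± 0.16 in CKO cells (adjusted p = 0.000264), where the times did not overlap, and by 0.42 ± 0.14 in CTL cells (adjusted p = 0.0133), where the library 4.24 at 6 h lay inside the range at 0 h. Lamc1 was not called in either genotype, with 0.22 ± 0.24 in CKO and 0.17 ± 0.21 in CTL cells, and the test of the difference between both responses gave 0.05 ± 0.33 (adjusted p = 0.944).

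The 8 low chains rose in CTL cells, and fewer of them passed in CKO cells, where 41.6% and 19.6% of all genes were called higher. They were set apart by their low level at 0 h, which is also the reference of this comparison. Calls among other genes of like level were not counted, so the rise is not shown to be a trait of these chains. Lama5 had 4.15, 2.03 and 2.16 CPM in CKO libraries at 6 h, against 0.320 to 1.08 CPM at 0 h. In CTL libraries Lama5 had 1.74, 3.37, 1.85, 1.28 and 1.42 CPM at 6 h, against 0.205 to 0.675 CPM at 0 h. It rose by 2.03 ± 0.43 in CKO and by 2.35 ± 0.40 in CTL cells, with no overlap of the times in either. All 8 low chains were called higher in CTL cells, from 1.21 ± 0.32 for Lamb2 to 4.23 ± 0.95 for Lama1, and 3 were called in CKO cells, Lama1, Lama5 and Lamb1. The low integrins Itga8, Itga11, Itgb4 and Itgb6 were called higher in CTL cells too, by 2.95 ± 0.62, 2.19 ± 0.36, 1.61 ± 0.38 and 3.50 ± 0.82, and Itga11 was called in CKO cells, by 1.19 ± 0.42.

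Olfactory receptor genes, which T cells are not known to express, gave a measure of reads outside expressed genes. The summed level of 1405 of these genes was 120 to 155 CPM in CKO libraries at 6 h, against 27.5 to 69.5 CPM at 0 h, and 111 to 1570 CPM in CTL libraries at 6 h, against 28.7 to 156 CPM at 0 h. The sum of the 8 low laminin chains moved with it, at 7.33 to 9.31 CPM in CKO libraries at 6 h, against 1.62 to 3.30 CPM at 0 h, and 6.65 to 62.2 CPM in CTL libraries at 6 h, against 1.29 to 6.66 CPM at 0 h. The highest of both values at each time in CTL cells came from the libraries numbered 4.24. Of 11 stromal and endothelial markers 1 rose and 1 fell in CKO cells (median 0.93), beside 19.6% and 13.1% of all genes. In CTL cells 8 rose and 1 fell (median 3.23), beside 41.6% and 21.7%. Their summed levels were 256 to 358 CPM in CKO libraries at 6 h, against 258 to 341 CPM at 0 h, and 202 to 246 CPM in CTL libraries at 6 h, against 232 to 278 CPM at 0 h. Most lay near the floor at 0 h, where 7 averaged under 1 CPM in CKO and 8 in CTL cells, so these sums rest on the few others. At 6 h 8 in CKO and 3 in CTL cells averaged under 1 CPM. The part of reads outside expressed genes, or of stromal and endothelial cells, in the low laminins and low integrins was not tested.

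Leaving out CTL library 4.24 at 6 h lowered the fold changes of the low genes in CTL cells, and each stayed called. Lama1 was then at 3.58 ± 1.07, Lama2 at 2.59 ± 0.83 in place of 3.63 ± 0.79, Lama4 at 3.19 ± 0.86 in place of 4.20 ± 0.85, Lamb1 at 2.58 ± 0.45 in place of 3.30 ± 0.52, Lama3 at 1.57 ± 0.32 in place of 2.38 ± 0.44 and Lamc3 at 1.00 ± 0.40 in place of 1.73 ± 0.48. With the replicate block 4 more low genes were called higher in CKO cells by edgeR: Itgb4 by 1.28 ± 0.41 (adjusted p = 0.0188), Itgb6 by 3.66 ± 0.73 (adjusted p = 0.000853), Lama2 by 3.23 ± 0.57 (adjusted p = 0.000354) and Lama4 by 1.74 ± 0.60 (adjusted p = 0.0271). With the random block in limma Itgb6 and Lama2 were called (adjusted p of 0.0317 and 0.0253), and Itgb4 and Lama4 were not (adjusted p of 0.0760 and 0.119).

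**Figure D4:**
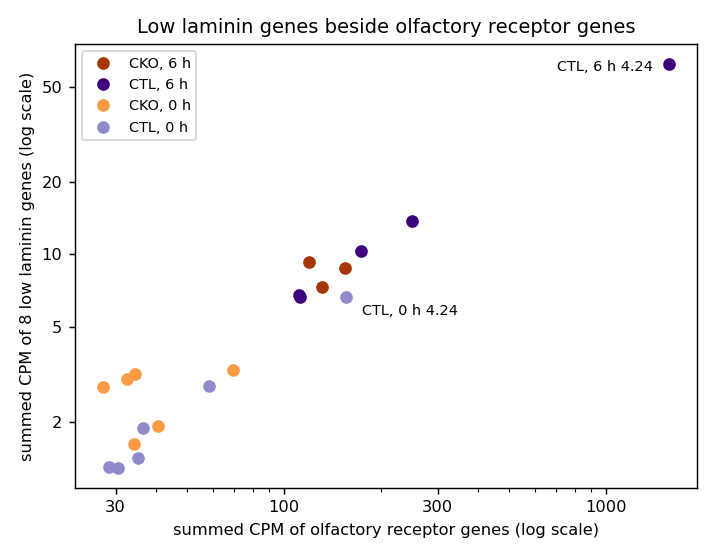
Summed CPM of the 8 low laminin chain genes against summed CPM of 1405 olfactory receptor genes, 1 point per library, both on log axes, for CKO and CTL cells at 6 h and 0 h. Points rise together from 0 h at the lower left to 6 h, and the CTL library 4.24 at 6 h lies far out at 1570 CPM of olfactory receptor genes and 62.2 CPM of laminin genes.

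The difference between both responses was tested directly and edgeR called 0 of the 36 genes and 0% of all genes, as did DESeq2. Of the 36 genes 8 had an unadjusted p under 0.05, as did 2725 of all genes tested, and without the CTL library 4.24 at 6 h these counts were 1 and 646. Lama3 had the smallest of these among the 36 genes (unadjusted p = 0.000309), with a difference of -3.05 ± 0.70. Its adjusted p was 0.465 with edgeR and, over the alternatives, ran from 0.0546 with DESeq2 to 1 without the CTL library 4.24 at 6 h, where the difference was -2.08 ± 0.50 with edgeR. Lamb3 differed by 0.54 ± 0.22, Itga6 by 0.56 ± 0.26, Itgb7 by 0.61 ± 0.28 and Itga7 by 0.55 ± 0.26, each with an adjusted p of 0.465. A gene called in CKO cells and not in CTL cells, or the reverse, is therefore not shown to respond differently.

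Of the 42 genes of integrin activation and the adhesion complex 16 fell, 2 rose and the rest did not pass with stimulation in CKO cells, beside 13.1% lower and 19.6% higher over all genes. In CTL cells 27 fell and 8 rose, beside 21.7% lower and 41.6% higher. The median log2 difference of the list was -0.23 in CKO and -0.47 in CTL cells, beside 0.12 and 0.31 for all genes. Fermt3, the kindlin of blood cells, averaged 182 ± 10.8 CPM in CKO cells at 6 h and 364 ± 19.4 CPM at 0 h, a difference of -0.93 ± 0.14, and 141 ± 32.5 CPM in CTL cells at 6 h and 348 ± 31.2 CPM at 0 h, a difference of -1.33 ± 0.12. Parvg, a parvin that links integrins to actin through ILK, fell by 1.07 ± 0.13 in CKO and by 1.32 ± 0.11 in CTL cells. The focal adhesion proteins Zyx and Vasp fell by 0.97 ± 0.12 and 0.95 ± 0.12 in CKO cells, and by 1.20 ± 0.10 and 1.11 ± 0.10 in CTL cells. T cell markers fell beside them, 7 of 8 in CKO and 8 of 8 in CTL cells, with summed levels of 2390 to 2880 CPM in CKO libraries at 6 h, against 5000 to 6200 CPM at 0 h, and 1870 to 2810 CPM in CTL libraries at 6 h, against 4430 to 5860 CPM at 0 h.

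Among integrin ligands Icam1, which binds αLβ2, rose in both genotypes. It averaged 184 ± 58.5 CPM in CKO cells at 6 h and 72.7 ± 13.9 CPM at 0 h, a difference of 1.42 ± 0.20, and 135 ± 39.1 CPM in CTL cells at 6 h and 56.0 ± 4.13 CPM at 0 h, a difference of 1.22 ± 0.18. Of the 25 ligands tested 4 rose and 3 fell in CKO cells, near the 19.6% and 13.1% of all genes. In CTL cells 15 rose and 2 fell, beside 41.6% and 21.7% of all genes, with collagen genes such as Col4a1 and Col1a2 rising in CTL cells to means of 3.40 ± 4.19 and 2.87 ± 3.94 CPM at 6 h, where the library 4.24 was highest. Tgfb3, a ligand handled by αvβ8, averaged 2.55 ± 0.587 CPM in CKO cells at 6 h and 6.27 ± 0.764 CPM at 0 h and fell by 1.54 ± 0.38. In CTL cells Tgfb3 averaged 4.31 ± 3.73 CPM at 6 h and 5.90 ± 1.28 CPM at 0 h, a difference of -0.54 ± 0.30 that was not called (adjusted p = 0.124).

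Of the 16 basement membrane partners and laminin receptors 2 rose and 3 fell in CKO cells, where 19.6% of all genes rose and 13.1% fell. In CTL cells 3 rose and 3 fell, where 41.6% rose and 21.7% fell. Dag1, which encodes dystroglycan, a laminin receptor outside the integrin family, averaged 105 ± 21.9 CPM in CKO cells at 6 h and 52.1 ± 10.1 CPM at 0 h and rose by 1.08 ± 0.22. In CTL cells Dag1 averaged 57.1 ± 17.3 CPM at 6 h and 43.3 ± 5.33 CPM at 0 h, a difference of 0.37 ± 0.18 that was not called (adjusted p = 0.0875). The difference of responses was not called (0.71 ± 0.29, adjusted p = 0.465). Nid2 averaged 1.47 ± 0.225 CPM in CKO cells at 6 h and 3.82 ± 0.881 CPM at 0 h and fell by 1.55 ± 0.40, so its difference between genotypes at 0 h was not called at 6 h, where its mean was 1.30 ± 1.18 CPM in CTL cells. The hyaluronan receptor gene Cd44 fell by 0.77 ± 0.15 in CKO and by 0.70 ± 0.12 in CTL cells, and Agrn (agrin, a laminin-binding proteoglycan) by 1.00 ± 0.27 in CKO and by 1.12 ± 0.22 in CTL cells.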

How the data were processed

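RNA from sorted cells was sequenced from stranded mRNA libraries, and the authors deposited raw read counts per gene for 20 libraries. Reads were trimmed with Trimmomatic 0.36, aligned with STAR 2.5.2b to GRCm38 and counted with featureCounts from Subread 1.5.2, per the submitters' processing notes, while for the annotation release and strand setting the sources used here give nothing. Of 49315 gene IDs, 49056 matched GENCODE M21, which gave names and lengths. Groups came from the labels.

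Counts were tested with edgeR 4.0.16 (R 4.3.3): genes with too few counts were dropped (minimum 10 in enough libraries and 15 in all), TMM factors were computed, and robust quasi-likelihood fits of group and labelled sex over all 20 libraries gave 5 contrasts, with Benjamini-Hochberg adjustment over 28082 genes and a threshold of 0.05. CPM use TMM library sizes. Standard errors are those implied by the quasi-likelihood F. DESeq2 1.42.0 and limma 3.58.1 served as alternatives. The edgeR procedure was run on simulated counts for the genotype comparison at 0 h only, drawn independently with the same spread for every gene. The simulation held no outlying library, no effect of sex and no link between libraries. It therefore does not bear on those features or on the other contrasts. No 2 libraries of a group agreed within sampling noise (chi-square per degree of freedom 21.5 to 303 over 43 pairs).

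Residuals of libraries sharing a number in their titles correlated by 0.286 to 0.685 between CKO and CTL cells at 0 h (5 pairs). Between 6 h and 0 h they correlated by 0.125 to 0.502 in CKO cells (3 pairs) and 0.274 to 0.511 in CTL cells (5 pairs). Between CKO and CTL cells at 6 h the value was 0.577 (1 pair). Libraries with different numbers were not compared in this way, so these values do not show that the numbers pair the libraries. Members and lists were chosen with earlier results of these data known. Every member is given by value or range, with full statistics for those called in a contrast, and from each companion list up to 4 called genes with the smallest adjusted p per contrast.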

Additional observations from a re-analysis of the deposited data

Results flagged for a closer look

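Within groups of 4 to 10 libraries, 26 of 108 gene and group combinations held a library whose gap to its nearest neighbour was large for the group's range by Dixon's criterion, where chance gives about 1 in 20, or 5.4. The CTL library 4.24 at 6 h accounted for 14 of them and the CTL library 4.24 at 0 h for 6. At 6 h that library was highest for Itga2 (4.62 CPM), Itga8 (5.70 CPM), Itga9 (5.48 CPM), Itga11 (8.98 CPM), Itgb4 (6.20 CPM), Itgb6 (4.87 CPM), Lama1 (11.2 CPM), Lama2 (15.6 CPM), Lama3 (6.20 CPM), Lama4 (10.1 CPM), Lama5 (3.37 CPM), Lamb1 (9.87 CPM) and Lamc3 (5.31 CPM), and lowest for Itgb2 (98.0 CPM). At 0 h the CTL library 4.24 was highest for Itga8 (0.413 CPM), Itga11 (1.56 CPM), Itgb6 (0.468 CPM), Lama1 (1.21 CPM), Lama2 (1.53 CPM) and Lama4 (0.633 CPM).

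In CKO cells at 0 h the library 4.24 was highest for Lama1 (0.325 CPM) and Lama2 (0.474 CPM), the library 5.6 for Itgb4 (1.03 CPM) and the library 9.20 for Itga7 (52.3 CPM). In CTL cells at 0 h the library 5.13 was highest for Itgb1 (789 CPM) and the library 10.28 lowest for Itgb8 (4.77 CPM).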

How the results depend on the processing

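No fold change of a member changed sign on a called value. The number of members called between genotypes at 0 h, 1, became 2 with DESeq2, with the Ddx3y level in place of the sex label, with the replicate block beside the sex label and with both CTL libraries 4.24 left out (chosen after seeing the data), and 3 with the replicate block and the Ddx3y level. At 6 h, 2 became 1 without the sex term and 0 with only the compared groups. Leaving out each library in turn gave 1 to 1 members at 0 h, 0 to 2 at 6 h, 14 to 24 for stimulation in CKO cells, 26 to 31 in CTL cells and 0 to 0 for the difference of responses. Beside the changes given with the results, the replicate block beside the sex label changed no other call of a member, and among the companion genes named it called Cd81 at 6 h (0.83, adjusted p = 0.0203) and Tgfb3 in CTL cells (-0.70, adjusted p = 0.0376) with edgeR; with the Ddx3y level added it also called Itga8 in CKO cells (1.18, adjusted p = 0.0464).

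Counts over all genes moved further. At 0 h, 119 became 421 with DESeq2, 198 without the sex term, 232 with Ddx3y, 285 with the replicate block, 410 with block and Ddx3y, 185 with only the compared groups and 268 without the CTL libraries 4.24. At 6 h, 82 became 432 with DESeq2, 54 with the replicate block, 126 among genes of at least 1 CPM and 8 with only the compared groups. For stimulation, genes of at least 1 CPM gave 4836 in place of 9203 in CKO and 7417 in place of 17791 in CTL cells. The share called higher in that setting was 48.1% in place of 59.9% in CKO and 52.9% in place of 65.7% in CTL cells. Leaving out 1 library gave 49 (without CTL 4.29 at 0 h) to 283 (without CTL 4.24 at 6 h) at 0 h, 16 (without CKO 5.6) to 212 (without CTL 5.13) at 6 h and 4848 (without CKO 11.18 at 6 h) to 12042 for stimulation in CKO cells, where the block with Ddx3y gave 14763. At 0 h 12 of the 36 genes averaged under 1 CPM in both genotypes, and 3 CKO libraries stand behind each result on CKO cells at 6 h.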
